A study of Mus musculus with 2 samples.

Results

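Chromatin accessibility was described at 10 genes that encode NF-kB and interferon regulatory factor (IRF) proteins, out of 21701 protein-coding genes. They were taken by name. They comprise the NF-kB subunit genes Nfkb1, Nfkb2, Rel, Rela and Relb, the inhibitor gene Nfkbia, and the IRF genes Irf1, Irf2, Irf4 and Irf8. No measured value entered this choice, but earlier results of these data were known when the genes, lists and motifs were chosen. The data are DNase-seq of thymus tissue of B6CASTF1/J mice, the offspring of C57BL/6J and CAST/EiJ parents. There were 2 animals, both female and 14 days old. The labels name no treatment or induced mutation and put both animals in 1 group, as biological replicates 1 and 2, so no condition can be compared. The labels give the animals different numbers and 1 shared donor identifier, and nothing else says how separate the animals were.

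NF-kB proteins bind DNA as dimers. In resting cells IkB proteins such as the product of Nfkbia hold the dimers in the cytoplasm, and receptor signals that activate the IkB kinase release them. A slower, alternative route processes the Nfkb2 precursor and acts with RelB, and in the thymus this route is known for its role in medullary epithelial cells. IRF proteins bind interferon-stimulated response elements. IRF1 is itself induced by interferons, IRF2 binds the same sites and often opposes it, and IRF4 and IRF8 act mainly in lymphoid and myeloid cells together with ETS or AP-1 family partners.

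DNase-seq reads where the enzyme DNase I cuts chromatin in nuclei, and open DNA is cut often. A peak is a stretch where cuts are dense, and a footprint is a short protected stretch within such DNA. The deposited lists held 97051 peaks and 276400 footprints in replicate 1, and 108010 peaks and 318156 footprints in replicate 2. Read depth is unknown from the files. Each peak carries a signal value of the authors, called strength here. Its scale, and whether it corrects for peak width, is not given, so each promoter was ranked within its replicate as a percentile among the open promoters. Tissue markers were checked first. A promoter peak in both replicates was present at 8 of 8 thymocyte markers, 4 of 8 thymic epithelium markers, 3 of 8 B cell markers, 2 of 7 myeloid and dendritic markers and 3 of 7 stroma and endothelium markers. The summed promoter strength of the thymocyte list was 84.6 in replicate 1 and 28.2 in replicate 2, while that of the epithelium list was 17.7 and 15.2. Among the markers of other cell types, the epithelial genes Ccl25, with percentiles of 67.4 in replicate 1 and 88.1 in replicate 2, and Aire, with 47.3 and 64.6, were open in both, as was the B cell gene Ebf1, with 43.0 and 55.9. No promoter peak was present in either replicate at Foxn1, the defining epithelial factor gene, at the B cell gene Pax5, or at the myeloid and dendritic genes Itgax and Adgre1. In bulk tissue, a site open in few cells and a site weakly open in many cells cannot be told apart.

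The promoter stretches that carry the motif matches described below are shown 5′ to 3′ on the strand of the gene. They were taken from RefSeq promoters of GRCm38.p6, whose main chromosomes are those of mm10, and were trimmed to leave out exons of the gene itself, except for the short Nfkb2 stretch. The Irf2 stretch also overlaps an exon of the gene model Gm16675, and the Nfkb2 stretch an exon of the gene model AC114539.1. Capitals mark the NF-kB consensus in Nfkb2, Rel, Nfkbia and Irf1, the GAS motif (TTCNNNGAA, the gamma interferon activation site) in Irf1, Irf2 and Irf8, and the ISRE motif (GAAA, 2 free bases, then GAAA again, the IRF type of site) in Irf2. The last stretch is the strongest distal peak of Nfkbia, read from the genome on the strand of Nfkbia, with RUNX (TGTGGT) and E-box (CAGCTG) matches in capitals. The letters are those of the C57BL/6J reference, and the CAST/EiJ allele was not used here. Nfkb1 and Relb are named only.
Nfkb2, chr19:46304688-46304717, plus strand: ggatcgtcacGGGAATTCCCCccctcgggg
Rel, chr11:23770971-23771219, minus strand: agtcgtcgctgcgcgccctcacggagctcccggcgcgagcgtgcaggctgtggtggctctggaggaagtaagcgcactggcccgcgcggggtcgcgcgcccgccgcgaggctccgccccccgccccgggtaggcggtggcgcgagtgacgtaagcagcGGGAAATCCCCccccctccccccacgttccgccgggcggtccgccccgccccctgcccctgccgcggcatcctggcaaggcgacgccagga
Nfkbia, chr12:55492648-55492897, minus strand: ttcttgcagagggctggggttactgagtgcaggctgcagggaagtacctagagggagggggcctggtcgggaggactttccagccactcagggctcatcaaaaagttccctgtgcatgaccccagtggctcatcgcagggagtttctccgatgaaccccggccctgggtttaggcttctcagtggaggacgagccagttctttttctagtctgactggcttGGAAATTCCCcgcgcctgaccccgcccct
Irf1, chr11:53769764-53770013, plus strand: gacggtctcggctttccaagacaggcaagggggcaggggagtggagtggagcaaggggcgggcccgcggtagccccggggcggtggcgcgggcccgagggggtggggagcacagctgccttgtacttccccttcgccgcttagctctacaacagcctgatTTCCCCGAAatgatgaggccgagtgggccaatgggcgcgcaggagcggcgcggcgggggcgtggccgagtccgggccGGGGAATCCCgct
Irf2, chr8:46739495-46739731, plus strand: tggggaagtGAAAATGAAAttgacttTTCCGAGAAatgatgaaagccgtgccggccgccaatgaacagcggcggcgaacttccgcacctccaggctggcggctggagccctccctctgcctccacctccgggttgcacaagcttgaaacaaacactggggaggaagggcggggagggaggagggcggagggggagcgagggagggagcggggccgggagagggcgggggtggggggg
Irf8, chr8:120736108-120736357, plus strand: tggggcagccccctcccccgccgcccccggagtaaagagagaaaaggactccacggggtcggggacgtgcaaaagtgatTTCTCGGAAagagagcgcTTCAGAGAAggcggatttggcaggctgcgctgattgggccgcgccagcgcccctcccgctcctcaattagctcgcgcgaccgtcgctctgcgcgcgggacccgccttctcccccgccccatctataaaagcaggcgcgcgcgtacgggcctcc
Nfkbia distal peak, chr12:55466441-55466720, minus strand: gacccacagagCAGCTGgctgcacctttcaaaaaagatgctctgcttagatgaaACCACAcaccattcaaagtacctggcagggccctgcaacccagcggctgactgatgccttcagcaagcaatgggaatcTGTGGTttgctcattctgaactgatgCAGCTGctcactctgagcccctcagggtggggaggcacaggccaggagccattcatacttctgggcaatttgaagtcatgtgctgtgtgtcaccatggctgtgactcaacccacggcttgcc

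All 10 genes had a peak within 500 bp of an annotated transcription start site (TSS) in both replicates. For comparison, that held for 58.6% of all protein-coding genes (12721 of 21701). In single replicates it was 60.4% in replicate 1 and 61.4% in replicate 2. The stricter peak list of the authors also held a promoter peak for all 10 genes in both replicates, where the share over all genes was 54.7%. The promoters were open but mostly of ordinary strength. Their median percentile was 43.9 in replicate 1 and 54.1 in replicate 2, and 3 of 10 and 8 of 10 lay above the 50th percentile. By family, the 6 NF-kB and inhibitor genes had a median percentile of 39.5 in replicate 1 and 57.6 in replicate 2, and the 4 IRF genes had 63.2 and 52.2.

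**Figure D1:**
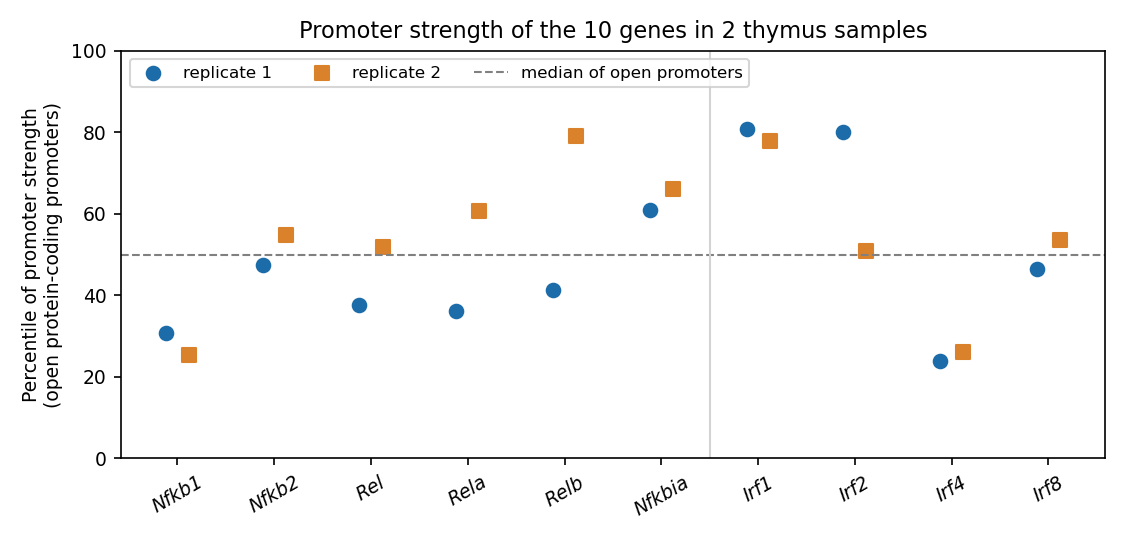
Percentile of promoter strength (vertical axis) of the 10 genes among all open protein-coding promoters of the same replicate, with circles for replicate 1 and squares for replicate 2. Irf1 is at 80.7 and 77.9, Irf4 and Nfkb1 are the 2 lowest in both replicates, and Relb and Irf2 lie far apart between the replicates.

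The first group of subunits carries a transactivation domain. Rela encodes the p65 partner of the classical dimer and lies at chr19:5637483-5648130 on the plus strand of mm10. It had 3.43 and 4.76 as its strengths in replicates 1 and 2. Its percentile averaged 48.3 ± 17.3 (SD, n = 2, as for each ± below). Its peak lay in the transcribed side of the promoter, 98 to 357 bp after the TSS in replicate 1 and 98 to 337 bp after it in replicate 2. Rel, at chr11:23736847-23770970 on the minus strand, encodes c-Rel, a subunit known for its role in lymphocytes. It had 3.67 and 3.94 and a percentile of 44.8 ± 10.0. Its strongest peak spanned the TSS in both replicates and was broad, with 440 bp in replicate 1 and 460 bp in replicate 2, against medians over open promoters of 220 bp and 240 bp. That peak held 9 footprints in each replicate, where the median open promoter held 4 and 5.

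Relb, at chr7:19606217-19629438 on the minus strand, encodes the subunit of the alternative route and differed most between the replicates. Its promoter strength was 4.24 in replicate 1 and 6.82 in replicate 2, with percentiles of 41.4 and 79.1 and a mean of 60.2 ± 26.7. These values belong to different elements. The TSS peak itself reached 4.24 in replicate 1 but 2.76 in replicate 2. The value of 6.82 came from an intronic peak at chr7:19628461-19629040, which began 398 bp after the TSS and so fell within the 500 bp window. In replicate 1 the same element was called as chr7:19628541-19628840, outside the window, with a strength of 23.1. This was at the 99.9th percentile of the distal peaks of that replicate. In replicate 2 the list also holds a shorter peak over the same element, chr7:19628461-19628760, with 6.40, which lay outside the window. The intronic element of Relb was thus open in both replicates, and in replicate 2 it counts among both the promoter and the distal peaks.

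The genes for the precursor subunits were unlike each other. Nfkb1, at chr3:135584655-135691547 on the minus strand, encodes p105, the precursor of p50. It had one of the 2 weakest promoters, with 2.58 in replicate 1 and 1.42 in replicate 2 and a percentile of 28.1 ± 3.79. A peak at the TSS and an intronic peak further into the gene were present in both replicates, at 2.58 and 1.34 in replicate 1 and at 1.38 and 1.42 in replicate 2. The promoter value of Nfkb1 thus came from the TSS peak in replicate 1 and from the intronic peak in replicate 2. The annotated alternative TSS of Nfkb1 had no peak. Nfkb2, at chr19:46304320-46312385 on the plus strand, encodes p100, the precursor of p52. It had 5.34 in replicate 1 and 4.20 in replicate 2, at a percentile of 51.1 ± 5.11. Its 4 annotated TSSs carried peaks at more than one start. The strongest lay at chr19:46305541-46305760 in replicate 1 and at chr19:46305541-46305740 in replicate 2. A further peak at the starts upstream of it had 5.06 in replicate 1 and 2.44 in replicate 2.

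Nfkbia, at chr12:55489410-55492647 on the minus strand, encodes IkBα and is itself a well known target of NF-kB. Its promoter had 7.98 in replicate 1 and 5.32 in replicate 2, and its percentile of 63.4 ± 3.73 was the highest mean of the 6 genes on the NF-kB side. A weaker peak of 3.08 in replicate 1 and 2.91 in replicate 2 lay within the gene and began 447 bp after the TSS. Both promoter peaks of Nfkbia overlapped between the replicates.

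Irf1, at chr11:53770014-53778374 on the plus strand, had the highest mean rank of the 10 promoters. Its strength was 14.1 in replicate 1 and 6.66 in replicate 2, and its percentile was 79.3 ± 1.99. A broader peak at a later start of Irf1 had 3.05 and 1.87. Irf2, at chr8:46739732-46847458 on the plus strand, had 13.7 in replicate 1 and 3.83 in replicate 2, with percentiles of 80.1 and 50.9. Irf8, at chr8:120736358-120756694 on the plus strand and known from myeloid and dendritic cells, had 5.13 and 4.08 at a percentile of 49.9 ± 4.99. Irf4, at chr13:30749226-30766976 on the plus strand, acts in lymphocytes after antigen receptor signals. It had the weakest promoter of the 10 in replicate 1, with 1.65, and the next to weakest after Nfkb1 in replicate 2, with 1.47, and its percentile was 24.96 ± 1.58. Second annotated starts of Irf2 and Irf8 had no peak.

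Ordered by mean percentile, the promoters ran from Irf1 through Irf2, Nfkbia, Relb, Nfkb2, Irf8, Rela, Rel and Nfkb1 to Irf4. Between neighbours in this order, only Rel and Nfkb1 differed by more than the larger SD of the pair. Irf4 and Nfkb1 were the 2 lowest in both replicates, and Irf1 was the highest in replicate 1 and behind Relb in replicate 2.

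Strengths were larger in replicate 1 over the whole list, with a median log2 ratio of replicate 1 to replicate 2 of 0.64 over the 12721 genes open in both. Relative to that median, 3 of the 10 genes leaned to replicate 1 and 7 to replicate 2. Irf2 stood 1.20 log2 units towards replicate 1, above the 95th percentile of all genes at 1.05. Relb, at -1.33, and Rela, at -1.11, stood beyond or at the 5th percentile of all genes, which was -1.11. For Relb, and also for Nfkb1, the ratio sets an intronic peak of replicate 2 against the TSS peak of replicate 1. The thymocyte markers had a median percentile of 71.0 in replicate 1 and 46.7 in replicate 2. Among markers with a peak, the median also fell for the B cell list, 29.0 and 19.8, and the myeloid and dendritic list, 14.9 and 11.7. It rose for the epithelial list, 34.7 and 42.8, and the stroma and endothelium list, 32.0 and 37.1. These medians rest on few genes. Whether cell makeup had a part in these shifts was not tested.

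The false discovery rate track of the authors, which lists bases with a rate under 0.05, gives a second view of how wide the open stretch is. Of the 1001 bases centred on the first TSS, Irf4 had 338 listed in replicate 1 and 857 in replicate 2, the fewest of the 10 genes in replicate 1. Irf8 had 656 and 958. In replicate 1 the other 8 genes had 848 to 1001 bases listed, against medians of 806 over open promoters and 373 over all genes. In replicate 2 the fewest were at Nfkb2, with 710, and the medians were 949 over open promoters and 533 over all genes. In replicate 1 Irf4 also had the lowest CpG content of the 10 genes, with an observed to expected ratio of 0.43 in the 300 bp around the centre of its peak, where the median open promoter had 0.812. Rela had the highest, 1.16.

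Away from promoters, most of the 10 genes had more peaks around them than the median gene. A distal peak lay over 500 bp from any annotated TSS, and each region was the gene body with flanks of 50 kb. The regions held 154 distal peaks in replicate 1 and 149 in replicate 2. Their median density was 10.8 per 100 kb in replicate 1 and 12.01 in replicate 2, against 3.88 and 4.85 over all genes. The thymocyte markers had a higher median, 22.4 and 23.9. The other marker lists ran from 1.81 to 7.59 in replicate 1 and from 2.71 to 10.2 in replicate 2. Of the pathway lists described below, NF-kB signalling had 7.13 and 8.01, and IRF and interferon signalling had 9.86 and 11.45. In both replicates 9 of 10 genes lay above the median of all genes, which 50% of all genes do by construction. Rel was the exception, with 3 distal peaks and 2.24 per 100 kb in each replicate. The peak lists hold some peaks that overlap each other, as at Rel in replicate 2. Each was counted by itself here and in the shares below. The 6 genes of the NF-kB side ran from 2.24 to 26.8 per 100 kb in replicate 1 and from 2.24 to 17.4 in replicate 2, while the 4 IRF genes stayed between 7.70 and 11.9 per 100 kb in replicate 1 and between 11.5 and 16.1 in replicate 2.

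**Figure D2:**
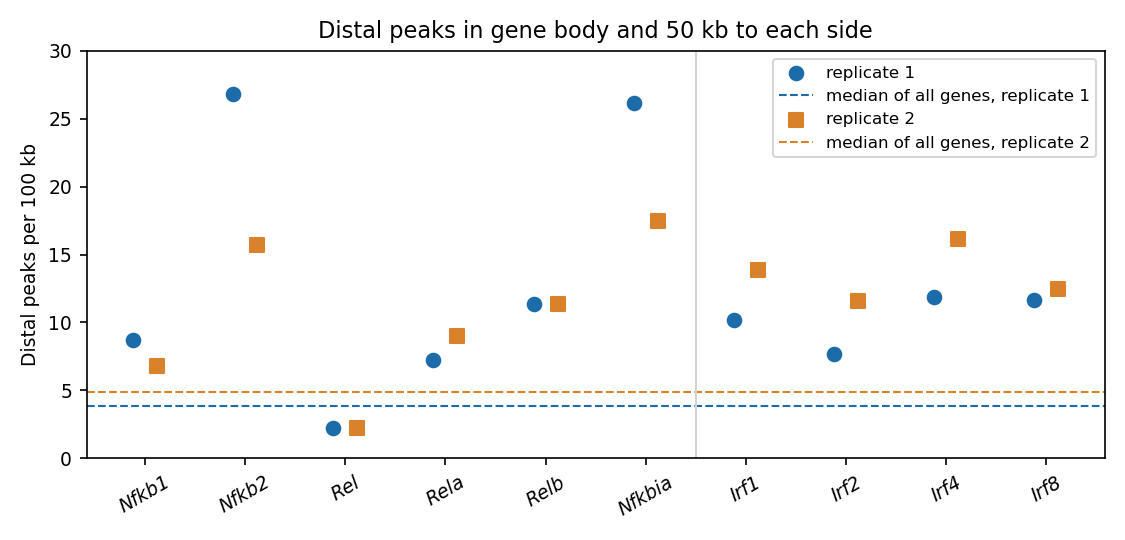
Distal peaks per 100 kb (vertical axis) of gene body with 50 kb flanks for the 10 genes, with circles for replicate 1, squares for replicate 2 and dashed lines at the medians of all protein-coding genes, 3.88 and 4.85. Nfkb2 and Nfkbia are the densest in replicate 1, Rel is below both lines, and the other genes are above them.

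Nfkb2 had the densest region in replicate 1, with 29 distal peaks or 26.8 per 100 kb, and 17 or 15.7 per 100 kb in replicate 2. Of the peaks in replicate 1, 19 were below the 25th percentile of strength of all distal peaks, against 1 in replicate 2, and 6 of the 29 overlapped a peak of replicate 2. The elements of Nfkb2 found in both animals included an exonic one at 4.94 kb, at chr19:46309161-46309360, with 2.89 in replicate 1 and 3.76 in replicate 2. Others lay at -22.0 kb within Gbf1, with 3.21 and 1.22, and 17.2 kb downstream of the first TSS within Psd, with 3.54 and 1.33. The region of Nfkb2 is shared with neighbours, since 5 other protein-coding genes have a TSS in it.

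Nfkbia had 27 distal peaks in replicate 1 and 18 in replicate 2, at 26.2 and 17.4 per 100 kb. No other protein-coding gene has a TSS in this region. The strongest lay 26.1 kb from the TSS in the direction of transcription, beyond the end of the 3.24 kb gene. It had 17.98 in replicate 1, at the 99.8th percentile of distal peaks, and 4.03 in replicate 2, and its sequence is the last one shown above. A neighbour at 27.4 kb had 6.18 and 2.16, and further shared peaks lay at 45.5 kb, with 4.58 and 1.93, and at 48.3 kb, with 3.86 and 1.98. Close to the end of the gene, a peak at 3.39 kb had 6.77 in replicate 1 and 2.47 in replicate 2. Upstream of Nfkbia, the strongest distal peak of replicate 2, 6.02, lay at -6.6 kb from the TSS and had 2.43 in replicate 1. Downstream peaks outnumbered upstream ones, with 20 against 5 in replicate 1 and 11 against 7 in replicate 2.

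Nfkb1, Rela and Relb each had strong distal peaks, and Rel had none. Nfkb1 had 18 distal peaks in replicate 1 and 14 in replicate 2 over a region of 206.9 kb. The strongest lay at -39.9 kb, which is upstream, at chr3:135731401-135731580, with 5.04 in replicate 1 and 6.48 in replicate 2, above the TSS peak of the gene in both animals. Rela had 8 and 10 distal peaks. One just past the end of Rela, at 11.4 kb, had 6.77 in replicate 1 and 3.03 in replicate 2. Relb had 14 in each replicate, with the intronic element as the strongest in both, at 23.1 in replicate 1 and 6.40 in replicate 2. Other peaks of the Relb region had nearly equal strengths in both animals, one at -39.6 kb, nearer to Clptm1, with 5.69 and 5.84, and one at 67.0 kb within Ppp1r37, with 5.199 and 5.29. Rel had weak distal peaks throughout, at most 0.623 in replicate 1 and 0.61 in replicate 2.

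**Figure D3:**
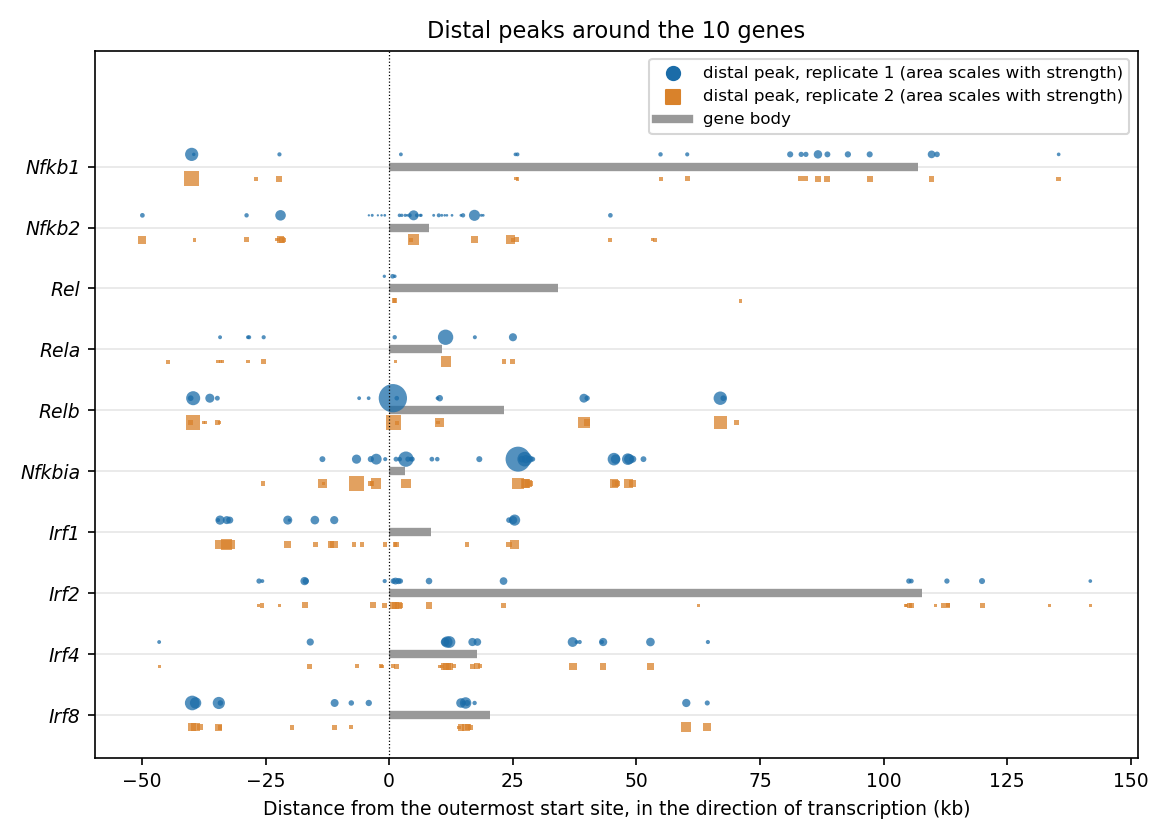
Distal peaks of the 10 genes by distance from the first TSS in the direction of transcription (horizontal axis, kb), with circles for replicate 1 and squares for replicate 2 whose area scales with strength, and grey bars for gene bodies. The large symbols are the intronic Relb element in replicate 1 and the Nfkbia element at 26.1 kb, and the row of Rel is nearly empty.

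Among the IRF genes, distal peaks of Irf4 lay mostly within and downstream of the gene, and those of Irf8 mostly upstream of and within it. Irf4 had 14 and 19 distal peaks. The strongest group of replicate 1 lay towards the end of Irf4. Peaks at 11.3, 11.7 and 12.2 kb there had 2.12, 3.64 and 4.005 in replicate 1 and overlapped peaks of 1.60, 1.69 and 1.54 in replicate 2. Each exceeded the promoter strength of Irf4 in the same replicate. Further shared peaks lay downstream at 37.1 kb, with 2.76 and 1.54, and at 52.8 kb, with 2.15 and 1.13.

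Irf8 had 14 distal peaks in replicate 1 and 15 in replicate 2, of which 11 in each overlapped the other replicate. A group upstream of Irf8 lay at -39.8, -39.2 and -34.5 kb, with 6.20, 3.73 and 4.28 in replicate 1 and 1.92, 1.98 and 1.52 in replicate 2. These peaks are nearer to the TSS of Cox4i1 and lie inside the long gene model Gm20388. Within Irf8, shared intronic peaks at 14.5 and 15.5 kb had 2.61 and 3.79 in replicate 1 and overlapped peaks of 1.18 and 1.53 in replicate 2. The strongest distal peak of Irf8 in replicate 2, with 2.86, lay 60.1 kb after the TSS and had 1.97 in replicate 1.

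At Irf1 and Irf2 every distal peak was weaker than the promoter in the same replicate. Irf1 had 11 and 15 distal peaks. Its strongest in replicate 1 lay at 25.4 kb within the gene model Gm12216, with 3.59 and 2.39, and one at -34.2 kb, nearest to the cytokine gene Il5, had 2.44 and 2.77. Irf2 had 16 and 24, and all 16 of replicate 1 overlapped a peak of replicate 2. At most they reached 1.98 in replicate 1 and 1.44 in replicate 2, and the strongest of replicate 2 lay in an intron at 1.25 kb.

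Of the distal peaks at the 10 genes, 62.3% of those in replicate 1 (95% Wilson interval 54.5 to 69.6, 96 of 154) overlapped a peak of replicate 2 by at least 1 bp. From the side of replicate 2 it was 62.4% (54.4 to 69.8, 93 of 149). Over all distal peaks the shares were 72.7% and 61.5%. No test of the difference was made. These intervals cover counting error only. For 58 peaks of replicate 1 and 56 of replicate 2 with no peak in the other animal, 11 and 10 had a base listed in the false discovery rate track of the other animal. By place, 33 distal peaks in replicate 1 and 37 in replicate 2 lay in an intron of the gene itself, 14 and 9 in an exon of it, 41 and 43 within another protein-coding gene, and 66 and 60 between genes. The nearest TSS was that of the gene itself for 111 and 108.

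Footprint density was also mostly above that of the median gene. The counts take every footprint of a region, including those in promoters of the gene and of its neighbours. Other protein-coding genes with a TSS in the region number 5 at Nfkb2, 5 at Rela and 6 at Relb. The regions held 677 in replicate 1 and 644 in replicate 2, with a median density of 52.7 and 56.8 per 100 kb, against 20.2 and 23.9 over all genes. In replicate 1, 9 of 10 genes lay above the median of all genes, and in replicate 2, 8 of 10. Rel, with 16.4 and 10.4 per 100 kb, was below it in both, and Nfkb1, with 33.4 and 21.7, only in replicate 2. Nfkb2, with 91.6 and 93.5, and Nfkbia, with 94.0 and 69.7, had the highest densities in replicate 1. Of the footprints, 43.9% in replicate 1 (40.2 to 47.6) and 47.0% in replicate 2 (43.2 to 50.9) overlapped one of the other animal, against 50.9% and 45.5% over all footprints. Within the strongest promoter peak, the 10 genes had a median of 5.5 footprints in replicate 1 and 6 in replicate 2, against 4 and 5 over open promoters.

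Motif letters were searched on both strands in 300 bp centred on each gene's strongest promoter peak. The NF-kB consensus matched in 6 of the 10 windows in replicate 1, those of Nfkb1, Nfkb2, Rel, Relb, Nfkbia and Irf1, against 5.71% of 13114 open promoters. In replicate 2 it matched in 5, against 5.98% of 13329, because the Relb window there is the intronic element. The Nfkb1 window of replicate 2 also lies on an intronic peak. Its match there is the one at +531, while the match of replicate 1 is the one at +34. The Relb TSS peak of both animals holds the matches. Among the NF-kB genes and the inhibitor, Rela was the one with no match in its window. Such a match is a run of letters and not a measured binding site.

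Of the other motifs, GAS matched at Irf1, Irf2 and Irf8 in both replicates, against 5.6% of open promoters in replicate 1 and 5.51% in replicate 2, and at Relb in replicate 2, in the intronic element. ISRE matched at Irf2, against 2.28% in either replicate, and there an ETS-IRF match (GGAA, 2 free bases, then GAAA) overlaps it, against 2.06% and 2.00%. The SP motif GGGCGG matched in all 10 windows in both replicates, against 69.8% and 69.7%. The E-box letters matched at Rela, Nfkbia and Irf1, against 16.7% and 16.1%. The cyclic AMP response element (TGACGTCA) matched at the Relb TSS window of replicate 1, against 3.81%. The RUNX letters matched in none of the 10 windows, against 11.0% and 10.5%, and the ETS letters CCGGAAGT in none, against 8.59% and 8.36%. No match says only that these letters are not in these windows, and the Rel stretch shown above does hold RUNX letters farther upstream.

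**Figure D4:**
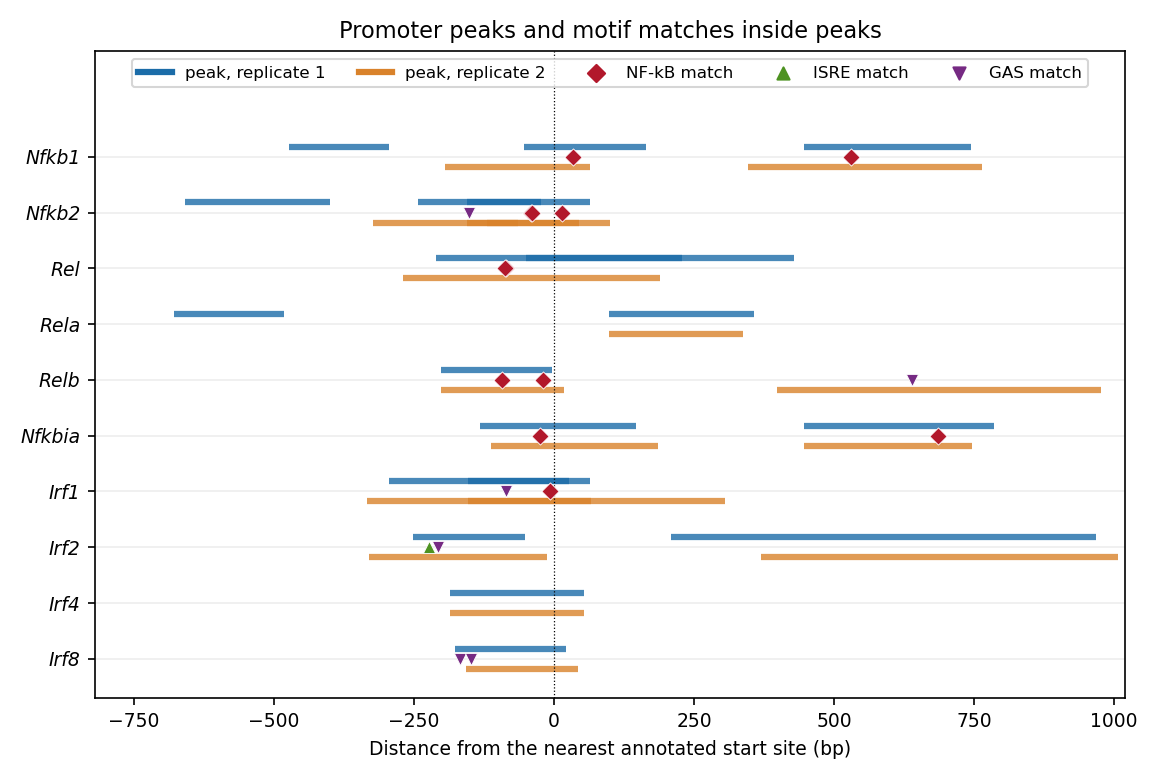
Promoter peaks (upper bars for replicate 1, lower bars for replicate 2) and matches of the NF-kB, ISRE and GAS motifs inside peaks, by distance from the nearest annotated TSS (horizontal axis, bp). NF-kB matches lie within 93 bp of a TSS at Nfkb1, Nfkb2, Rel, Relb, Nfkbia and Irf1, with further ones at +531 of Nfkb1 and +685 of Nfkbia, and Rela and Irf4 have none of the 3 motifs.

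The NF-kB matches in promoter peaks differed in their footprint cover. At Nfkb1 the match at +34 overlapped a footprint by 10 bp in replicate 1 and by 6 bp in replicate 2, the fullest cover of these matches in both animals, while a further match at +531, in an intronic peak of both animals, touched none. At Rel the match shown above, at -86, overlapped by 7 bp and 2 bp. At Nfkbia the match at -25 overlapped by 5 bp in replicate 1 and by 0 bp in replicate 2, and a further match at +685 by 5 bp and 3 bp. The match in the strongest peak of Nfkb2, at +14 from a later start, lay in a peak of both animals and touched no footprint in either. The Nfkb2 match shown above, near -41 of an earlier start and outside the window counted here, overlapped by 4 to 5 bp in replicate 1 and was outside a peak in replicate 2. The matches at -20 and -93 of Relb and at -8 of Irf1 touched no footprint in either animal. Over all open promoters, 42.2% of such matches in replicate 1 and 39.4% in replicate 2 touched a footprint, and 20.9% and 16.1% overlapped one by at least 5 bp.

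The GAS and ISRE matches varied in footprint cover too. Over all open promoters, 41.7% of GAS matches in replicate 1 and 40.6% in replicate 2 touched a footprint. An overlap of at least 5 bp was found for 30.9% and 29.2%. Of ISRE matches, 49.4% and 39.7% touched a footprint, and 35.1% and 27.9% overlapped by at least 5 bp. The ISRE of Irf2, at -223, overlapped a footprint by 8 bp in replicate 1 and by 0 bp in replicate 2. The GAS match of Irf1 at -86 overlapped by 0 bp and 7 bp, and that of Irf8 at -167 by 0 bp and 6 bp, although the Irf8 match lay outside the called peak of replicate 2. The second GAS match of Irf8, at -149, and that of Irf2, at -207, touched none in either animal. A GAS match of Nfkb2 at -151, in the peak upstream of its strongest one, overlapped by 8 bp and 4 bp. The GAS match of Relb at +640, in the intronic element, overlapped by 8 bp and 3 bp. Apart from these 2 motifs, the cyclic AMP response element match of Relb at -70 overlapped a footprint by 8 bp in both replicates.

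In distal windows of the 10 genes, the NF-kB consensus matched in 11 of 154 (7.14%) in replicate 1 and in 10 of 149 (6.71%) in replicate 2, against 4.38% and 3.85% of all distal windows. RUNX letters, which name the factor family that acts in thymocytes, matched in 27.3% and 23.5%, against 28.2% and 26.6%. ISRE letters matched in 2.60% and 2.68%, against 3.7% and 3.97%. GAS letters matched in 5.84% and 5.37%, against 8.28% and 8.78%, and SP letters in 16.9% and 10.7%, against 13.5% and 10.9%. E-box letters matched in 27.9% and 22.1%, against 25.8% and 21.7%. The strong downstream element of Nfkbia shown above holds both RUNX and E-box letters, each common in distal windows. In replicate 1 a RUNX match there overlapped a footprint by 6 bp and an E-box match by 5 bp. No RUNX or E-box match there touched a footprint in replicate 2.

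Most other genes of both pathways had open promoters. A list of 36 NF-kB signalling genes outside the 10 had a promoter peak in both replicates at 36 of 36, against the 58.6% of all genes, with a median percentile of 44.4 in replicate 1 and 48.8 in replicate 2. The strongest on average was Map3k14, which encodes the kinase NIK of the alternative route, at a percentile of 96.4. Bcl10, an adaptor of antigen receptor signals, followed at 92.4, then Tnip1, which encodes an inhibitor that acts with A20, at 91.3, the adaptor gene Traf2 at 90.6 and the deubiquitinase gene Cyld at 89.3. All 5 ranked above each of the 10 genes. The lowest of the list by mean percentile were Tlr4, at 5.74 in replicate 1 and 1.95 in replicate 2, and Il1r1, at 4.13 and 3.56. With the stricter peak list, 31 of the 36 had a promoter peak in both replicates, against 54.7% of all genes.

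Of 25 IRF and interferon signalling genes, 23 had open promoters in both animals, with a median percentile of 61.5 in replicate 1 and 53.1 in replicate 2. The receptor gene Ifngr1 came first at 94.6, followed by the feedback inhibitor gene Socs1 at 91.6, Irf3 at 89.1, Ifnar1 at 86.2 and Irf2bpl at 83.4. Spi1, which encodes the ETS factor PU.1, a partner of IRF4 and IRF8, had no promoter peak in either animal. Spib, a related partner gene, had one in replicate 2 only, with a strength of 0.95.

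**Figure D5:**
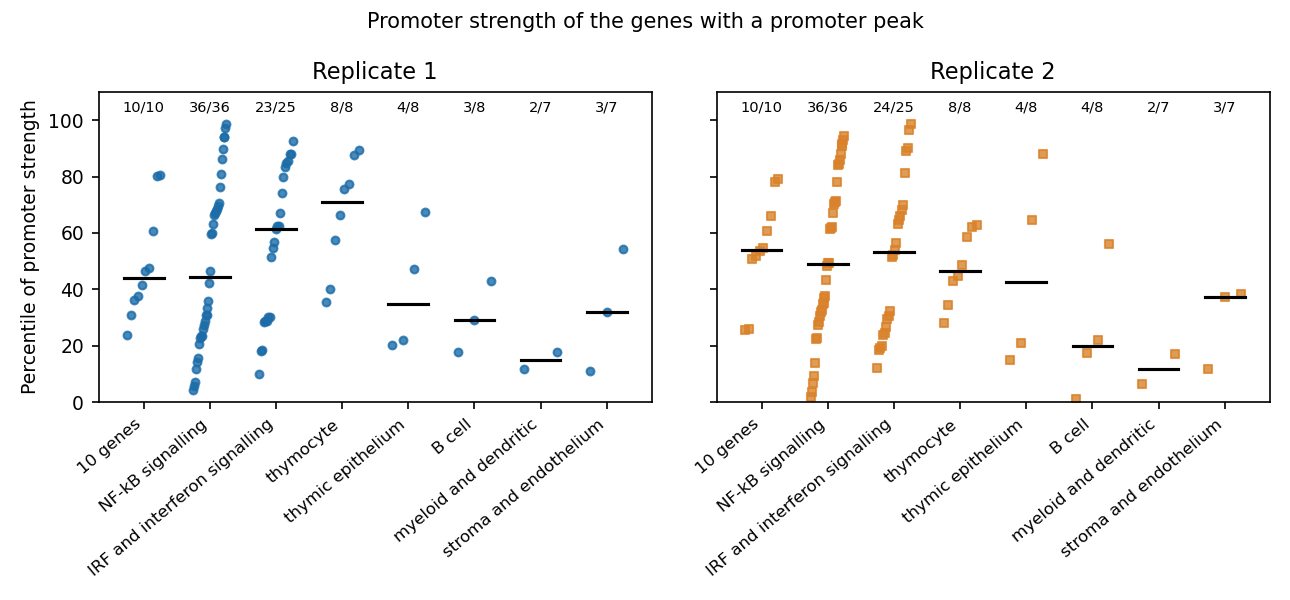
Percentile of promoter strength (vertical axis) of the genes with a promoter peak in each list, by replicate, with medians as bars and the number of genes with a peak over the number measured above each column. The 10 genes have medians of 43.9 and 54.1, and the thymocyte list has medians of 71.0 and 46.7.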

How the data were processed

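DNase-seq files of 2 thymus samples were used. Per the labels and the deposited file listing, the authors made peaks, footprints and a false discovery rate track on mm10 for each sample by itself. The sources used here do not name the aligner, the callers or their settings, or say how CAST/EiJ reads were handled, which could change peaks where the alleles differ. The deposited peak signal is the authors' own value on an unstated scale, so it was ranked within a replicate. The p-value deposited for each run of bases in the track is a false discovery rate, and the footprint files hold 1 constant value, which was not used. Of 2 deposited peak lists the longer served, and the shorter was the stricter alternative.

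Genes and TSSs came from the basic GENCODE M21 annotation, after 27 duplicated symbols were left out, and coordinates are 1-based mm10 positions. A promoter peak overlapped the 500 bp to either side of any TSS, and a gene counted with its strongest. Overlap meant at least 1 bp. RefSeq promoters of GRCm38.p6 were matched by symbol for 8 of the 10 genes. Named genes were all 10, the 5 strongest promoters of each pathway list with those lacking a peak, the lowest promoters of these lists, and examples of the marker lists. With 1 group no test was made, and all counts are descriptions. Members, lists, motifs and alternatives were chosen with earlier results of these data known. Scripts used Python 3.11.15, pandas 2.3.3, SciPy 1.17.1, pysam 0.24.0 and samtools 1.23.1, and the overlap steps were tested on simulated data. Genes on chromosome 18 of the lists are not reported here.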

Additional observations from a re-analysis of the deposited data

How the results depend on the processing

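Of the results on the 10 genes, the number with an open promoter stayed at 10 under every alternative run, and the mean over replicates of their median percentile, 49.0, stayed within the spread between replicates. The share of distal peaks found in both replicates, 62.4% as the mean of both directions, was 67.8% with the stricter list, 66.1% with distal peaks over 2000 bp from a TSS and 47.2% when 50% of both peaks had to overlap. It was 58.8% with a flank of 25 kb, 65.8% with 100 kb and 61.7% with the comprehensive annotation, an alternative chosen after seeing the data. The share of footprints in both replicates, 45.5%, was 47.7% with a flank of 100 kb, 43.2% inside peaks and 31.5% when 50% of both had to overlap. The wider flank also gave 229.5 distal peaks instead of 151.5 and 1016 footprints instead of 660.5, as means of the replicates. Open promoters numbered 31 to 36 of the NF-kB list and 23 to 24 of the interferon list over all alternatives run, lowest for the NF-kB list with the stricter peaks. No paired analysis was possible because the study has 1 group. Read depth is unknown, so no limit of detection can be set for promoters or regions without a peak. With 2 animals, an SD rests on 1 difference.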
